A study of Mus musculus with 11 samples.

Results

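The nuclei described here were picked by a marker rule from single-nucleus RNA sequencing of mouse cortex. The rule used transcripts of brain mural cells, the pericytes and smooth muscle cells of blood vessels. Some of the nuclei were marked as astrocytes or other cell types, as given below. A nucleus was a member when it had 300 to 8000 genes, at most 5% of its UMIs in mitochondrial genes, at most 1 UMI of Slc17a7 (the vesicular glutamate transporter of excitatory neurons) and at least 1 UMI in 3 or more of 7 genes, Atp13a5, Abcc9, Notch3, Pdgfrb, Vtn, Slc38a11 and Tbx3os1. A UMI is a molecular tag that stands for 1 captured RNA molecule. Of 112539 nuclei that passed the gene and mitochondrial limits, 845 were members. The limit on Slc17a7 took out 39 nuclei that met the other conditions.

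The series asked how NF-κB signalling in microglia shapes tau disease, and these nuclei came from the frozen cortex of 11 mice, with 1 library per mouse. The labels give the mice as female, while the study's methods name male mice for RNA sequencing. In the nuclei outside the rule Xist, which is transcribed from the inactive X chromosome of females, ranged from 793 to 1493 UMIs per 1000000 over the mice, and 4 genes of the Y chromosome together from 1.12 to 1.73. The non-transgenic group (NT, n = 4, 9.8 to 10.85 months old) was ikbkb+/+ without tau, and the P301S group (n = 3, 9.15 to 10.75 months) was ikbkb+/+;P301S+. The knockout group was ikbkb-/-;P301S+ (KO, n = 2, 8.39 and 9.15 months), and the active IKKβ group was ikbkbCA;P301S+ (CA, n = 2, 9.8 and 10.85 months). P301S is a human tau transgene with a disease mutation, Ikbkb encodes IKKβ, an activating kinase of the NF-κB pathway, and ikbkbCA stands for a constantly active form of it. By the study's methods both Ikbkb alleles were switched by tamoxifen through Cx3cr1-CreERT2, which acts in microglia and other cells that express Cx3cr1, so mural cells were not the target. By the same methods NT and P301S mice had no Cre, and KO and CA mice carried a Cx3cr1-CreERT2 allele in place of a normal Cx3cr1 allele. In KO or CA against P301S, the Ikbkb change thus cannot be told apart from Cre or the Cx3cr1 allele. Mice without Cre received tamoxifen too. All KO mice belonged to a floxed line and all CA mice to the line of the active allele, with NT and P301S mice in both, so that KO and CA differ in line as well and were not compared with each other.

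Pericytes sit on capillaries inside the basement membrane that they share with endothelial cells, smooth muscle cells ring the arterioles, and both contract and relax to set local blood flow. Endothelial cells recruit pericytes by releasing PDGF-B, which pericytes sense through the receptor made from Pdgfrb. Notch signals received from neighbouring endothelial cells through Notch3 help to keep mural identity.

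The libraries held 72007219 to 93205362 UMIs and 7362 to 12208 nuclei each. Members numbered 47 to 134 per mouse and held 3118247 UMIs in all, with 175896 to 579617 per mouse. Their median depth was 2472 UMIs and 1463 genes per nucleus. The other nuclei were deeper, with medians of 5308 to 9499 UMIs per mouse. Among all barcodes, 1599 of 112502 occurred in more than 1 library, and among members 0 of 845 did.

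The label was first checked against markers of other cell types and a nucleus with at least 3 of 7 genes of another type was counted as marked. Of the 845 members, 581 (68.8%) carried no other marker set, 148 (17.5%) were marked as astrocytes and 116 (13.7%) were marked otherwise. Most of the unmarked nuclei had nearly the whole rule, with 7 of the genes in 221, 6 in 228, 5 in 86, 4 in 35 and 3 in 11. Astrocyte-marked nuclei showed another pattern. Of them, 138 met the rule with exactly 3 genes, and 129 did so with the same trio of Atp13a5, Notch3 and Pdgfrb.

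Abcc9 was found in 4.05% and Slc38a11 in 4.73% of astrocyte-marked members, against 80.9% and 85% of the unmarked ones. Depth went the other way, since the median astrocyte-marked member held 5346 UMIs and the median unmarked member 2115. Levels are given below in CPM, the UMIs of a gene per 1000000 UMIs of the same nuclei, computed per mouse and averaged over the 11 mice. Over all 7022 astrocyte-marked nuclei with at most 1 UMI of Slc17a7, members included, mean levels were 74.3 CPM of Atp13a5, 39.6 CPM of Notch3 and 78.8 CPM of Pdgfrb, but 0.819 CPM of Abcc9, 1.91 CPM of Vtn and 1.26 CPM of Slc38a11. For the astrocyte-marked members the data therefore go against the label. The unmarked members carry the description that follows, and both sets are given for the comparison of genotypes. By construction an unmarked member has fewer than 3 marker genes of any other type.

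**Figure D1:**
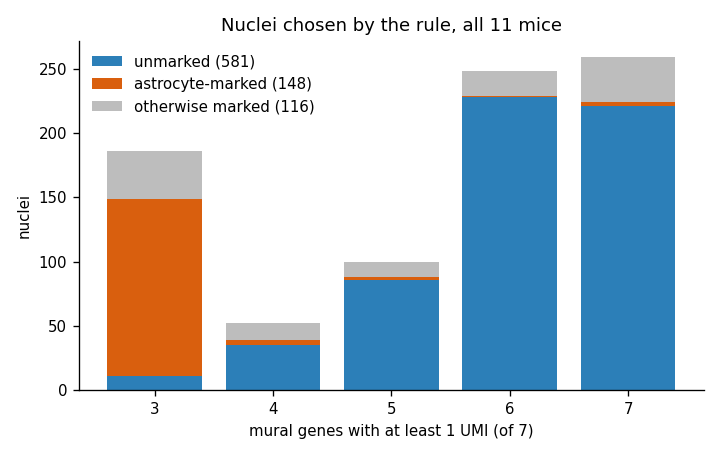
Number of members (vertical axis) by how many of the 7 mural genes had at least 1 UMI (horizontal axis), summed over the 11 mice, with colours for unmarked, astrocyte-marked and otherwise marked nuclei. The astrocyte-marked nuclei sit almost wholly at 3 genes (138 of 148), and most unmarked nuclei have 6 (228) or 7 (221).

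Other marker sets in members were those of fibroblasts (44 nuclei), oligodendrocytes (40), excitatory neurons (29), endothelial cells (20), inhibitory neurons (18), microglia (7) and oligodendrocyte precursors (5), and a nucleus can be in more than 1 of these sets. Whether marked nuclei are doublets was not tested. The astrocyte-marked share of members was 7.02%, 10.2%, 17.8% and 21.1% in the NT mice and 1.35%, 10.1% and 24.3% in the P301S mice. In the KO mice it was 16.8% and 40.4%, and in the CA mice 28.6% and 23.1%. The share thus varied widely within groups, and the lowest belonged to a P301S mouse and the highest to a KO mouse.

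The promoters of a gene pair are shown first, because both genes were high in these nuclei and nearly absent elsewhere. Abcc9 encodes SUR2 and Kcnj8 encodes Kir6.1, the regulatory and pore subunits of the ATP-sensitive potassium channel of vascular cells. They are neighbours on chromosome 6 of GRCm38, both on the minus strand, Kcnj8 at chr6:142564837-142571614 and Abcc9 at chr6:142587862-142702315, with 16.2 kb and no protein-coding gene between them. Each window runs from 250 bases before to 50 bases after the RefSeq start site (build GRCm38.p6), 5′ to 3′ on the strand of the gene. Capitals mark TGGGAA or its reverse complement TTCCCA, the core of the motif bound by RBPJ, the DNA-binding partner of Notch receptors.
Abcc9, chr6:142702225-142702524, minus strand: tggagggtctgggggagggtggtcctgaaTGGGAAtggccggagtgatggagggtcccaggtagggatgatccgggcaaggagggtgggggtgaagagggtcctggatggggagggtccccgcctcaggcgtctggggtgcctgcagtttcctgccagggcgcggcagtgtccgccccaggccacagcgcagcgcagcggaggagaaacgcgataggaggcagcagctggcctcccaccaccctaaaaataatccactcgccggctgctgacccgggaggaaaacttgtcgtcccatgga
Kcnj8, chr6:142571565-142571864, minus strand: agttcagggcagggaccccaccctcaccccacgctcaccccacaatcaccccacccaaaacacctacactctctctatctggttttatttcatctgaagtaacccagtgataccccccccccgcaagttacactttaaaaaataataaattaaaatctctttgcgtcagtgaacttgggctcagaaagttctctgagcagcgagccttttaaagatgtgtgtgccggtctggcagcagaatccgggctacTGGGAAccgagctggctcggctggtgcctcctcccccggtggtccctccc
Each window held the core 1 time. Searched on both strands, it occurred in 25.6% of 32851 promoter windows of all genes and in 22.7% of the 22 windows found for 18 of the 27 rule and leading genes. The windows of 3 more mural genes were read, and it occurred 2 times for Hey2, a Notch target, and 0 times for Notch3 and Rgs5. A palindromic motif of EBF factors, also searched, was in 0 of the same 22 windows and in 0.904% of all. These matches describe letters and not bound sites.

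The 7 genes of the rule chose the nuclei, so their levels are a description without a test. Abcc9 ranged over the mice from 978 to 1410.2 CPM in unmarked members, with a median of 1164 CPM. Notch3 ranged from 1133 to 1656 CPM (median 1293) and Pdgfrb from 798 to 1061 CPM (median 925). Endothelial-like nuclei (n = 516, with at least 3 of 7 endothelial markers and outside the rule) had means of 5.78, 7.11 and 4.99 CPM. This gap was set by the choice on both sides, because nuclei that met the rule were left out of the endothelial-like set. Atp13a5, a P5-type ATPase at chr16:29231851-29378732, ranged from 4211 to 6063 CPM (median 5193). Vtn, the gene of the matrix protein vitronectin, ranged from 779.8 to 1838 CPM (median 1073), and Slc38a11, a putative amino acid transporter, from 785 to 1735 CPM (median 1126). The last of the rule, Tbx3os1, an antisense transcript at the Tbx3 locus, had a median of 1176 CPM. Over all 845 members the means were lower, for example 607 CPM of Abcc9 and 750.4 CPM of Notch3. At the edge of the rule, 186 nuclei had exactly 3 of the genes and were members, and 1375 had 2 and were not.

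Mural genes that the rule did not use were high in the same nuclei. Of 20 such genes, 17 were higher in unmarked members than in all other nuclei of the same mouse in each of the 11 mice, while 5.14% of the 26990 genes detected were. These 26990 genes had UMIs in unmarked members or in the other nuclei, and 16526 had UMIs in unmarked members. Genes without UMIs in unmarked members could not be higher there, which lowers the shares of higher genes given here and below. The nuclei were chosen on transcripts of the same cells, so the count checks the label and is not a test. Rgs5, a regulator of G-protein signalling and a classical pericyte gene, ranged from 577 to 1004 CPM (median 739.8). Cspg4, the NG2 proteoglycan of the pericyte surface, was at 348 ± 77.8 CPM (mean ± SD over 11 mice, as below) against 3.09 CPM in endothelial-like nuclei. Rgs5 also had 316 ± 210.4 CPM in endothelial-like nuclei and the mice of the sets overlapped, so it separated the types less well. Ndufa4l2, Cox4i2 and Higd1b, which act in or at mitochondria, had 58.4, 55.7 and 37.3 CPM and were above the other nuclei in every mouse. The exceptions were Grm8, Foxs1 and Ifitm1. Grm8, a metabotropic glutamate receptor, had 206 CPM in unmarked members and 486 CPM in the other nuclei, and Foxs1 and Ifitm1 were at 4.2 and 9.23 CPM.

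**Figure D2:**
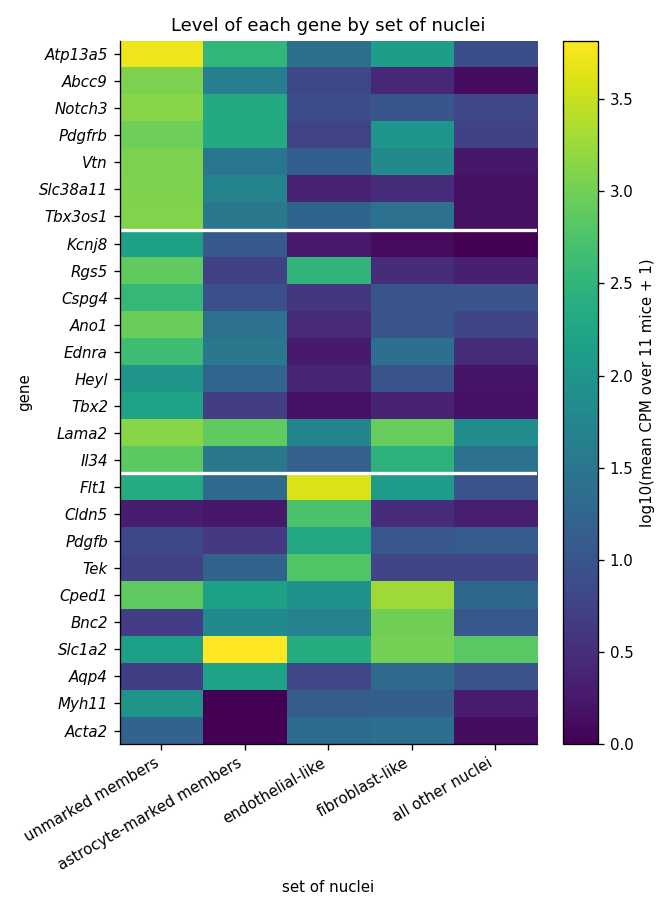
Level of each gene (vertical axis) in 5 sets of nuclei (horizontal axis), with colour for log10 of the mean CPM over 11 mice plus 1, and white lines between the genes of the rule, other mural genes and genes of other cell types. Unmarked members are high in both upper blocks, and Slc1a2, an astrocyte glutamate transporter, is at 6584 CPM in astrocyte-marked and 143 CPM in unmarked members.

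Kcnj8, the pore gene next to Abcc9, ranged from 106 to 300.5 CPM in unmarked members (median 141), and in endothelial-like nuclei it was at 0 in 9 mice and at 3.21 and 6.73 CPM in the other two, from 2 UMIs. The sets did not overlap, and the share of all genes without overlap was not counted. Kcnj8 was found in 24.4% of unmarked members and 0.388% of endothelial-like nuclei, at median depths per mouse of 1680 to 2603 and 1728 to 3617 UMIs.

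Ion channels and transporters were numerous in the profile. Besides the 3 that the rule used (Abcc9, Atp13a5 and Slc38a11), 25 genes were listed. In all 11 mice, 15 of them were higher and 1 was lower in unmarked members than in the other nuclei (all detected genes, 5.14% and 26.7%). Relative to endothelial-like nuclei 14 were higher in all mice, a direction shown by 1.93% of all detected genes. Ano1, a calcium-activated chloride channel, ranged from 705 to 1197 CPM (median 903) against 1.86 CPM in endothelial-like nuclei. The cation channel gene Trpc4 was at 549 ± 152 CPM. Cacna1c, the pore of the L-type calcium channel, was at 2345 ± 258 CPM and above the 1092 CPM of the other nuclei in each mouse, although neurons express it as well. Slco3a1, an organic anion transporter, was at 914 ± 126 CPM, Slc16a12, which carries creatine, at 439 ± 92.6 CPM, and Slc30a10, a manganese exporter, at 329.9 ± 66 CPM. Slc6a20a, a proline transporter, did not separate mural from fibroblast-like nuclei (n = 895), with 1201 ± 341 against 1122 ± 342 CPM. Unlike the unmarked members, both comparison sets kept nuclei marked for a further type, and 454 of the 516 endothelial-like nuclei had no such mark. Astrocyte transcripts (7 genes) summed to 7709 CPM in fibroblast-like nuclei, 847 CPM in endothelial-like nuclei, 4662 CPM in unmarked members and 1903 CPM in all other nuclei. The genes did not move together. In unmarked members 1 of the 7 was above and 3 were below the other nuclei in all mice. Their median log2 ratio to the other nuclei was -0.42.

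Genes that receive and relay vasoactive signals came next, with 16 of 35 above and 6 below the other nuclei in all mice (all detected genes, 5.14% and 26.7%). Relative to endothelial-like nuclei 14 were above and 1 was below in all mice (all detected genes, 1.93% and 2.4%). Nitric oxide relaxes mural cells by activating soluble guanylate cyclase. Its subunit genes Gucy1a1, Gucy1a2 and Gucy1b1 had 224 ± 39.4, 1309.6 ± 130.1 and 554 ± 90.7 CPM, against 23.8, 139 and 40.1 CPM in endothelial-like nuclei. No mouse overlapped between the sets for any of the 3, and the share of all genes without overlap was not counted. Prkg1, the kinase that cyclic GMP activates, was at 4603 ± 725 against 1867 ± 402 CPM. The phosphodiesterases, which break cyclic nucleotides down, included Pde8b at 4039.5 ± 720.5 CPM, Pde5a at 413 ± 84.1 CPM and Pde3a at 362 ± 135 CPM. Plce1, a phospholipase C, was at 1234 ± 125 against 24.9 ± 24.6 CPM.

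Ednra, the endothelin A receptor, ranged from 319.6 to 599 CPM (median 439) and was found in 56.1% of unmarked members and 0.388% of endothelial-like nuclei. In endothelial-like nuclei it was at 0 in 9 mice and at 3.53 and 6.42 CPM in the other two. Tbxa2r, the thromboxane receptor, and S1pr3, a sphingosine phosphate receptor, had 84.4 ± 29.1 and 98.8 ± 30.2 CPM against 3.94 ± 5.16 and 2.44 ± 4.27 CPM in endothelial-like nuclei. Calcrl, part of the receptor for the dilator CGRP, was lower than in endothelial-like nuclei in 9 of 11 mice, with 83.2 ± 28.1 against 152 ± 54.8 CPM.

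Among genes of the PDGF pathway, the ligand gene Pdgfb ranged from 116 to 297 CPM in endothelial-like nuclei (median 203) and from 0 to 17.6 CPM in unmarked members. Pdgfd, another ligand gene, ranged from 684 to 1641 CPM and from 0 to 10.9 CPM. Neither overlapped. The level of the receptor gene Pdgfrb in both sets was set by the choice of nuclei, since it is part of the rule. In the PDGF list of 14 genes without Pdgfrb, 2 were higher and 3 lower than in endothelial-like nuclei in all mice, against 1.93% and 2.4% of all detected genes. Pik3r1, a regulatory subunit of PI3 kinase, was among the higher ones at 319 ± 61.9 against 126 ± 53.9 CPM.

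In the Notch list of 21 genes without Notch3, which the rule used, 6 were above the other nuclei and 4 above endothelial-like nuclei in all mice, against 5.14% and 1.93% of all detected genes. In all mice 1 was below endothelial-like nuclei, against 2.4% of all genes, the ligand gene Jag2 with 13.1 ± 11 against 130.0 ± 39.7 CPM. Jag1, another ligand gene, was in both sets with overlapping mice, at 101 ± 26.6 and 72.4 ± 41 CPM. The Notch targets Heyl and Hey2 did not overlap between the sets, again without a count of the share over all genes. Heyl ranged from 54.9 to 149 CPM in unmarked members against 0 to 7.05 CPM, and Hey2 from 31.6 to 106 CPM against 0 to 10.5 CPM. Maml2, a coactivator, was higher in unmarked members, at 1286 ± 137 against 782 ± 115 CPM, while Rbpj, at 93.5 ± 34.4 and 72.9 ± 34 CPM, overlapped.

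Of 28 TGF-beta, angiopoietin and related partner genes listed besides Flt1, 11 were lower in unmarked members than in endothelial-like nuclei in all mice and 2 were higher (all detected genes, 2.4% and 1.93%), S1pr3 and the gap junction gene Gja4 (32.2 ± 13.6 CPM). Tek, the angiopoietin receptor, was at 596 ± 151 CPM in endothelial-like nuclei and 4.38 ± 5.44 CPM in unmarked members, without overlap (share over all genes not counted). Eng, a TGF-beta co-receptor, was lower than in endothelial-like nuclei but not absent, at 139 ± 35 against 482 ± 95.5 CPM, and was above the other nuclei in all mice. Flt1 was at 223 ± 72.8 CPM, but it is 1 of the endothelial markers used to mark nuclei, so its level among unmarked members is limited by that choice.

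**Figure D3:**
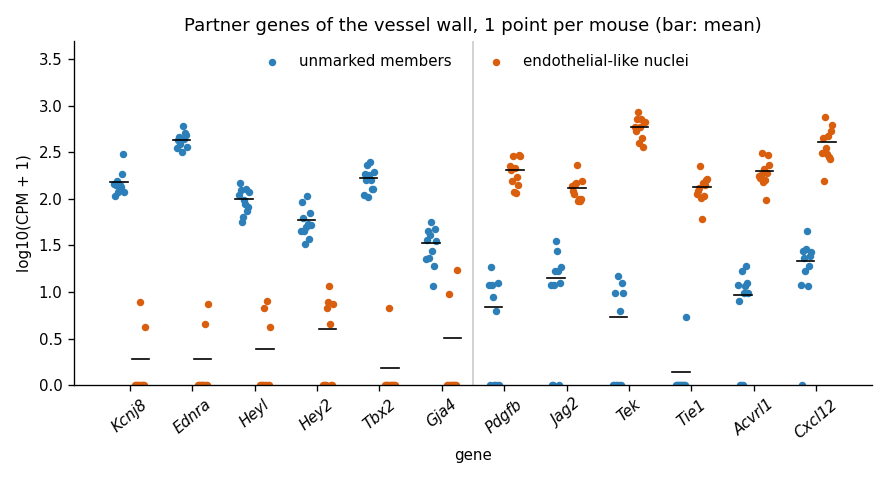
Level of 12 genes (horizontal axis) as log10 of CPM plus 1 (vertical axis) in unmarked members and endothelial-like nuclei, with 1 point per mouse and a bar at the mean. The 6 genes on the left, among them Kcnj8 and Ednra, were higher in unmarked members, and the 6 on the right, among them Pdgfb (5.84 against 201 CPM) and Tek, were higher in endothelial-like nuclei.

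Matrix and adhesion genes were broadly high. Of 29 listed besides Vtn, which the rule used, 21 were above the other nuclei, 13 above endothelial-like nuclei and 3 below endothelial-like nuclei in all mice, against 5.14%, 1.93% and 2.4% of all detected genes. The laminin chain genes Lama2 and Lamc1 had 1369.7 ± 192 and 772 ± 132 CPM against 51.7 and 99 CPM in endothelial-like nuclei. Lamc3, also a laminin chain, was at 293 ± 66.1 CPM and Nid1, which links laminin to collagen IV, at 253 ± 59 CPM. Collagen IV chains split. Col4a3 and Col4a4 had 245 ± 99.9 and 95.5 ± 33.9 CPM against 10.7 and 3.1 CPM, while Col4a2 was lower than in endothelial-like nuclei in all mice (91.8 ± 37.1 against 191 ± 83.5 CPM) and Col4a1 overlapped. Fn1, fibronectin, was at 4.76 ± 5.77 CPM against 329 ± 77.7 CPM. The integrin genes Itga1 and Itga4 had 776 ± 152 and 279 ± 92.2 CPM. Of 25 scar and fibrosis genes, 5 were below the other nuclei in all mice, against 26.7% of all detected genes, and 13 were below fibroblast-like nuclei, against 3.49%. Those above the other nuclei numbered 2, against 5.14% of all genes, and were the collagen genes Col1a2 (39.8 ± 22.3 CPM) and Col5a2 (71.6 ± 29.4 CPM), and both had higher means in fibroblast-like nuclei (281 and 114 CPM). Col1a2, Dcn and Col3a1 of this list are among the markers that define fibroblast-like nuclei.

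Of 30 transcription factor genes, 17 were above the other nuclei and 13 above endothelial-like nuclei in all mice, against 5.14% and 1.93% of all detected genes, while 2 were below the other nuclei and 4 below endothelial-like nuclei, against 26.7% and 2.4%. Ebf1 was high in both vascular types and higher in unmarked members in each mouse, at 3518 ± 540.4 against 2142 ± 481 CPM. Tbx2 ranged from 103 to 247 CPM and was found with 1 UMI in all endothelial-like nuclei, and its mean in fibroblast-like nuclei was 1.4 CPM. Fibroblast-like nuclei shared several others. Tbx18 and Tbx15, regulators of mural and mesenchymal development, had 144 ± 38.1 and 225 ± 66 CPM in unmarked members and 235 ± 55.9 and 347 ± 107 CPM there, and Zic1 had 295 ± 73.4 and 227 ± 38 CPM. Nr2f2, known for venous identity, was at 293 ± 63.3 CPM, and Epas1, which encodes HIF-2α, was lower than in endothelial-like nuclei in all mice (298 ± 81.7 against 783 ± 231 CPM).

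Contractile genes were split by kind, with 12 of 26 above and 3 below the other nuclei in all mice, against 5.14% and 26.7% of all detected genes. In the comparison with endothelial-like nuclei 8 were above and 1 was below, against 1.93% and 2.4%. Cald1, which encodes caldesmon, was at 2029 ± 317 CPM, Rbpms, an RNA-binding protein gene of muscle, at 989 ± 150.4 CPM, and Mylk, the myosin light chain kinase gene, at 266 ± 81.5 CPM. Structural genes of mature smooth muscle were low. Acta2 ranged from 0 to 82.4 CPM, Tagln from 0 to 52.8 CPM and Myh11 from 37 to 158 CPM, and Cnn1 had 0 UMIs. Of all members, 20 carried at least 2 of 7 smooth muscle genes, and of 30 nuclei in the series with at least 3 of them, 14 were members. Smooth muscle nuclei were too few to compare genotypes.

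The 20 genes outside the rule with the largest ratio of members to other nuclei, among genes of at least 100 CPM in members, were Gm36823, Pla1a, Carmn, Rgs5, Pla2r1, Gm14005, Egflam, Itga1, Gjc1, Lamc3, Nid1, Ggt5, Rbpms, Col4a3, Ednra, Art3, Slc6a20a, Ano1, Slc22a8 and Gm30624. They were chosen on these nuclei and are a description. Carmn, Gm36823, Gm14005 and Gm30624 are annotated as long intergenic non-coding RNAs. Gm14005 ranged from 915 to 1512 CPM in unmarked members, with 6.89 CPM in endothelial-like nuclei. Gm36823, at chr3:38426552-38443874, ranged from 114 to 453 CPM and had 0 UMIs in endothelial-like nuclei. Pla2r1, the phospholipase A2 receptor, and Pla1a, a secreted phospholipase, were at 256 ± 80.8 and 209.9 ± 96.5 CPM and also had 0 UMIs there. Slc22a8, an organic anion transporter, was the one with overlapping mice and a similar mean in endothelial-like nuclei, at 219 ± 40 against 234 ± 98.6 CPM. Rgs4, which lies 45.7 kb from Rgs5 on chromosome 1 and is not among the 20, was at 254 ± 91.7 CPM.

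A list for human vessel disease or brain calcification held 22 genes besides Pdgfrb, Notch3 and Abcc9, which the rule used. Of these, 6 were above the other nuclei in all mice, and 2 were higher and 6 lower than in endothelial-like nuclei. The shares of all detected genes were 5.14%, 1.93% and 2.4%. Notch3 is the CADASIL gene, and Pdgfrb, Pdgfb, Xpr1, Slc20a2 and Jam2 are genes of familial brain calcification. Xpr1, a phosphate exporter, and Slc20a2, a phosphate importer, were in both vascular sets with overlapping mice, at 246 ± 47.4 and 281 ± 57.8 CPM and at 66.4 ± 29.5 and 61.2 ± 27.8 CPM. Jam2, a junction gene, was endothelial, at 206 ± 54.6 against 9.02 ± 7.21 CPM.

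Of 43 genes of NF-κB and inflammatory responses, 5 were above and 7 below the other nuclei in all mice, against 5.14% and 26.7% of all detected genes. Compared with endothelial-like nuclei, 1 was above and 4 were below, against 1.93% and 2.4% of all genes, so that the share above was near that of all genes. The one above was Il34, which encodes a ligand of the microglial receptor CSF1R. It ranged from 514 to 948 CPM (median 733) and was found in 68% of unmarked members and 3.88% of endothelial-like nuclei, against 0 to 79.2 CPM in endothelial-like nuclei, and fibroblast-like nuclei had 296 ± 110.0 CPM. The kinase gene Ikbkb, altered in microglia by design, was at 65.6, 70.8, 106 and 65.9 CPM in unmarked members of the NT mice, 39.5, 62.5 and 106 CPM in P301S, 47.6 and 54.7 CPM in KO and 69.4 and 82.4 CPM in CA mice. The groups overlapped, and 3′ counts do not check a deletion elsewhere in the gene. Nfkbia, an early NF-κB target, and Il1r1, the interleukin-1 receptor, were lower than in endothelial-like nuclei, at 13.9 against 138 CPM and 42.7 against 275 CPM. Icam1, Ccl2, Il6 and Lcn2 had 0 UMIs in unmarked members, which allows up to 2.17 CPM over their 1382720 UMIs (3 counts, counting error only).

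Whether the share of mural nuclei differed between genotypes was asked next. A share also moves with the yield of other cell types, so fewer mural nuclei and more of the rest cannot be told apart. Members were 0.604%, 0.87%, 0.788% and 0.591% of nuclei in the NT mice and 0.663%, 0.647% and 0.679% in the P301S mice. They were 1.08% and 0.638% in the KO and 0.454% and 1.2% in the CA mice. The P301S values lay within the NT range, and the CA mice included both the lowest and the highest value of the series. Means were 0.713% ± 0.138 (SD, n = 4) in NT and 0.663% ± 0.016 (n = 3) in P301S mice, and an exact two-sided permutation test gave p = 0.543 (smallest possible 0.0286). Against P301S, the KO mean of 0.859% ± 0.312 gave p = 0.40 and the CA mean of 0.825% ± 0.525 gave p = 0.70 by the same exact test (n = 2 each), which cannot go below 0.10 in this design. All P301S mice (n = 7) against NT (n = 4) gave an exact p = 0.733, and all adjusted values were 0.733. Unmarked members alone had means of 0.516% ± 0.122, 0.491% ± 0.0959, 0.533% ± 0.313 and 0.506% ± 0.295 in NT, P301S, KO and CA mice, with an adjusted exact permutation p of 1 in all 4 comparisons.

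**Figure D4:**
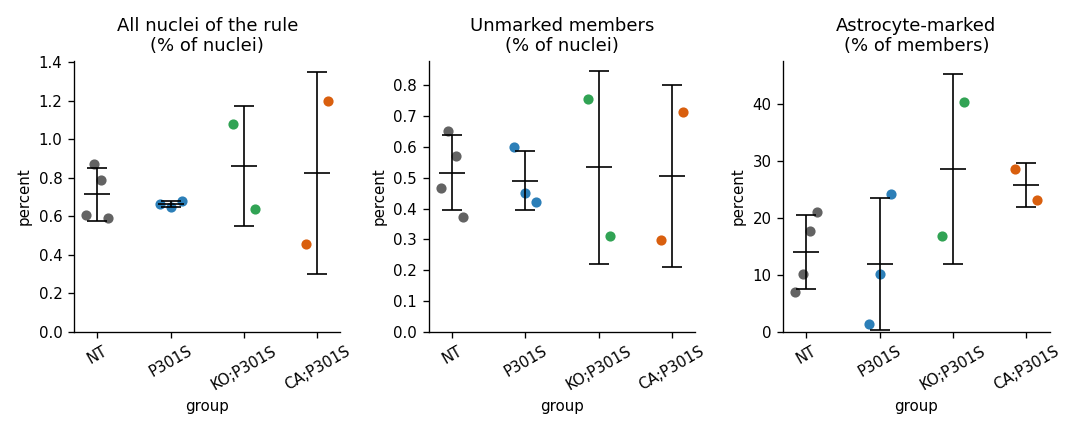
Members as a share of nuclei, unmarked members as a share of nuclei and astrocyte-marked nuclei as a share of members (vertical axes, percent) by group (horizontal axis), with 1 point per mouse, a dash at the mean and whiskers of 1 SD. Groups overlap in the first 2 panels, and the astrocyte-marked share runs from 1.35% in a P301S mouse to 40.4% in a KO mouse.

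For expression, UMIs of the members were summed per mouse and 6011 genes entered the quasi-likelihood test of edgeR. At a Benjamini-Hochberg adjusted p under 0.05 it called 0 genes (0%) for P301S against NT, 0 (0%) for KO against P301S, 0 (0%) for CA against P301S and 0 (0%) for all P301S mice against NT. DESeq2 called 0 in each as well. The KO mice are all of the floxed line and 1 of the 3 P301S mice is not, and the KO count was 42 with breeding line as a covariate and 99 with each title number of each line as a block, the latter chosen after seeing the data. At an unadjusted edgeR p under 0.05 there were 178, 386, 267 and 279 genes in that order. In simulated counts of 6011 genes with these depths, 41%, 19%, 20% and 55% of 2-fold changes and 87%, 79%, 82% and 97% of 4-fold changes were found for the same comparisons. The simulation gave genes of the same level the same spread and did not vary the astrocyte-marked share, so recovery in these data may be lower. Unmarked members alone were not simulated. All 4 comparisons use the P301S mice, the last also the KO and CA mice, and the first and last the NT mice, so they are not independent.

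The genes of lowest p did not pass. For P301S they were Tmed10, Rasa2, Mdn1, Dgcr8 and St13 (edgeR adjusted p = 0.999) and for all P301S mice Arhgap29, Mdn1, Cntnap5b, Ttc4 and Polr3e (adjusted p = 0.972). Mdn1, a ribosome assembly gene, had 56.3, 51.5, 57.5 and 49.8 CPM in NT and 91.3, 129.7 and 80.9 CPM in P301S mice, where CPM from here on is that of the fit, per 1000000 UMIs of the tested genes with TMM scaling. Mdn1 was picked for its low p, so the separation of these groups follows from that choice and adds no evidence. The share of all tested genes with such separation was not counted. The log2 fold change of Mdn1 was 0.90 ± 0.26 (SE). Arhgap29 had a log2 fold change of -0.69 ± 0.17 for all P301S mice.

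For KO the genes of lowest p were Folh1, Srpr, Sema4d, Palld and Slc7a10 (edgeR adjusted p = 0.462 to 0.494), and for CA Palld, Prex1, Gm20696, Slc7a10 and Lpcat3 (adjusted p = 0.987). Palld, an actin-binding gene, was at 12.5, 47.8, 70.8 and 77 CPM in NT, 11.4, 29.3 and 42.2 CPM in P301S, 122 and 155 CPM in KO and 165 and 114 CPM in CA mice. All KO and CA mice lay above all others, a separation that again follows from picking genes of low p. Slc7a10, an amino acid transporter of astrocytes, was at 37.5, 44.1, 66.4 and 58.9 CPM, 17.1, 41.9 and 42.2 CPM, 92 and 141 CPM and 122 and 87.5 CPM in the same order, with the same arrangement. Both are transcripts of the astrocyte-marked nuclei, where their levels per 1000000 of all UMIs were 179 and 196 CPM, against 7.01 and 3.79 CPM in unmarked members. The astrocyte-marked share of members had means of 14% ± 6.51 (SD) in NT, 11.9% ± 11.6 in P301S, 28.6% ± 16.7 in KO and 25.9% ± 3.84 in CA mice. Within each of the 4 groups, mice with a larger share had more Palld, for example 11.4 CPM at a share of 1.35% and 42.2 CPM at 24.3% among P301S mice. Slc7a10 did not keep this order in NT, where replicate 3 had 66.4 CPM at 17.8% and replicate 4 had 58.9 CPM at 21.1%. Between groups the order differed in places, since KO replicate 1 had 122 CPM of Palld at 16.8%. The part of this share in the values of both genes was not tested.

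Mural genes and markers of other cell types were then read as lists, in which 0 genes were called. In KO against P301S the median log2 fold change was -0.41 for the 17 tested of the mural genes outside the rule, 0.98 for 7 astrocyte transcripts, -2.13 for 7 endothelial markers and -0.97 for 7 oligodendrocyte transcripts, beside -0.01 for all genes. In CA against P301S these medians were -0.40, 0.89, 0.33, -0.66 and -0.00372. For P301S against NT they were -0.01, -0.23, -0.96, 0.38 and -0.00803, and for all P301S mice -0.21, 0.46, -1.59, -0.08 and -0.02. None of the astrocyte, endothelial and oligodendrocyte medians kept its sign in all 4 comparisons. The median of the mural genes was negative in all 4, at -0.01 for P301S against NT. In unmarked members the mural medians were -0.09 for P301S, 0.07 for KO, -0.09 for CA and -0.13 for all P301S mice. The astrocyte transcripts summed to 6709 to 10171 CPM in NT, 3398 to 11636 CPM in P301S, 10386 to 14780.4 CPM in KO and 10055 to 13931 CPM in CA mice, and the endothelial markers to 140.2 to 2212 CPM in NT, 185 to 741 CPM in P301S, 79.1 to 241 CPM in KO and 169 to 963 CPM in CA mice, with detected UMIs for all genes of both lists. The part of these other transcripts in the mural values was not tested. For KO, 42 genes passed with age as a covariate. Without P301S replicate 3 there were 11, all 11 over 2-fold higher in astrocyte-marked nuclei than in unmarked members. Of the genes called for KO with line, with age and with the block, 42, 39 and 96 were over 2-fold higher there, as were 13.1% of all genes tested.

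With the marked nuclei left out, 3361 genes could be tested. edgeR called 0 (0%) in each of the 4 comparisons and DESeq2 0, with 183, 131, 117 and 190 genes at an unadjusted edgeR p under 0.05. The genes of lowest p were Usp29, Cdh13, Gpc5, Adarb2 and Gpr158 for P301S (edgeR adjusted p = 0.0587 to 0.566), Gm42418, Gpc5, Golga3, mt-Cytb and Phtf2 for KO (0.589 to 0.99), Phtf2, Mgp, Adarb2, mt-Cytb and Gpc5 for CA (0.999) and Cdh13, Usp29, Fam19a1, Mtif2 and Kcnab1 for all P301S mice (0.0777 to 0.756).

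Usp29 and Cdh13 came closest to the threshold. Usp29, an imprinted gene of the ubiquitin protease family, was at 40.7, 25.7, 85 and 79.7 CPM in NT and 213, 388 and 179.7 CPM in P301S mice. The KO mice had 156 and 44.5 CPM and the CA mice 128 and 212 CPM. For P301S its log2 fold change was 2.21 ± 0.41 (SE, edgeR adjusted p = 0.0587), from 178 UMIs in all mice. Cdh13, which encodes T-cadherin, was at 13.6, 25.7, 42.5 and 53.1 CPM in NT, 77.3, 185 and 233 CPM in P301S, 136 and 134 CPM in KO and 142 and 164 CPM in CA mice. Each of the 7 mice with P301S lay above each of the 4 without. Cdh13 was picked for its low p, so this separation adds no evidence, and its share over all genes was not counted. The log2 fold change of Cdh13 was 2.14 ± 0.41 for all P301S mice (edgeR adjusted p = 0.0777) and 2.26 ± 0.46 for P301S (0.0827), from 131 UMIs. In the other nuclei Cdh13 was higher, with group means of 426, 475, 488 and 484 CPM of all UMIs in NT, P301S, KO and CA mice, and Usp29 had 298, 326, 305 and 381 CPM there. Whether RNA from other cells contributed to these few UMIs was not tested.

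Over 16 further settings, chosen after seeing the data, the log2 fold change of Usp29 for P301S lay between 1.79 and 2.49, with edgeR or DESeq2 adjusted p from 0.0148 to 0.564, and it passed in 5. Cdh13 for all P301S mice lay between 1.93 and 2.43, with adjusted p from 0.0114 to 0.789, and passed in 5. Both kept their direction in all of these settings, and neither passed in most of them. Usp29 passed without NT replicate 3, P301S replicate 1, P301S replicate 3, KO replicate 2 or CA replicate 1. Cdh13 passed without P301S replicate 1 or CA replicate 1, with line or age as a covariate and with each title number of each line as a block.

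**Figure D5:**
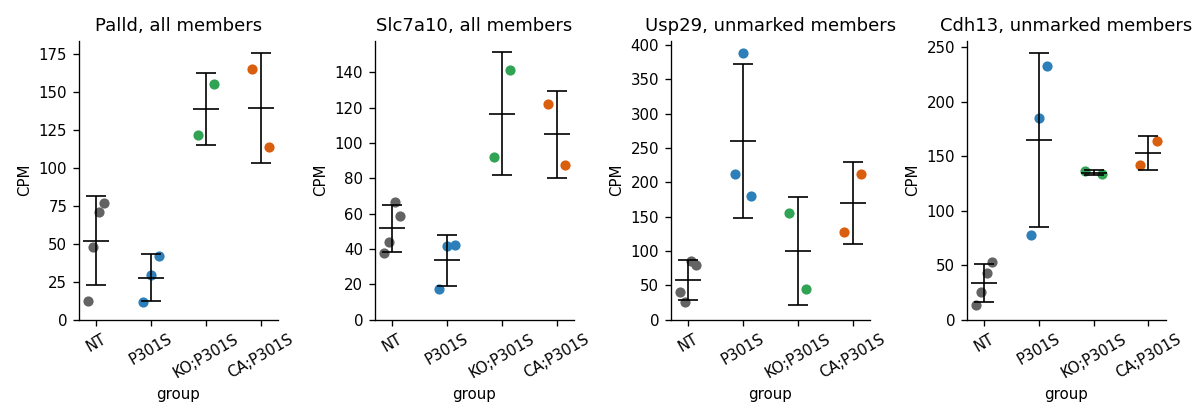
Level in CPM on the scale of the fit (vertical axes) by group (horizontal axis) of Palld and Slc7a10 in all members and of Usp29 and Cdh13 in unmarked members, with 1 point per mouse, a dash at the mean and whiskers of 1 SD. Palld and Slc7a10 are highest in KO and CA mice, and Cdh13 is at most 53.1 CPM in the NT mice and at least 77.3 CPM in the mice with P301S, but none passed the test.

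In unmarked members 15 of the 20 mural genes outside the rule could be tested and 0 were called. Their median log2 fold change was -0.09 for P301S, 0.07 for KO and -0.09 for CA, beside 0.0020, -0.0244 and -0.00779 for all genes. Il34 had log2 fold changes of 0.22 ± 0.21 for P301S, 0.08 ± 0.25 for KO and -0.21 ± 0.25 for CA (± SE), and did not pass. The rule genes chose the nuclei, so no genotype comparison is given for them.

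The difference between all P301S mice and NT was also compared between members and endothelial-like nuclei in 1 model. The interaction was called for 0 of 6566 genes (0%) by edgeR, with 263 at an unadjusted p under 0.05, and for 0 of 4352 genes with the marked nuclei left out (209 unadjusted).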

How the data were processed

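Frozen cortex nuclei were sorted by DAPI and profiled with 10x 3′ chemistry, 1 library per mouse. The values are raw UMI counts per gene and barcode that the authors deposited after Cell Ranger 3.1.0 on mm10 with pre-mRNA counted; the submitters' processing notes also name Seurat 3.0. Everything else was computed here from those counts with Python 3.11.15 and R 4.3.3. The members, gene lists and tests were chosen with earlier results of these data known.

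Of 114118 barcodes, 112539 nuclei were kept: 1556 had over 5% mitochondrial UMIs, 23 had over 8000 genes and 0 had under 300. No doublet caller was run, unlike in the study. Fits were also run without nuclei that had at least 3 of 7 markers of another type and, as an alternative, without members over 3000 genes. Whether the nuclei left out were doublets was not tested. No cells were clustered. Groups came from the genotype labels.

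Counts were summed per mouse and tested with edgeR 4.0.16 (TMM, filterByExpr, quasi-likelihood test, 11 mice, 1 term per genotype), with calls at a Benjamini-Hochberg adjusted p under 0.05 and an absolute log2 fold change over 0.1. Depth per mouse was 175896 to 579617 UMIs for all members and 54877 to 230537 for unmarked members, and the number of mice limits precision further. DESeq2 1.42.0 was an alternative. Shares were compared by exact two-sided permutation tests, adjusted over 4 comparisons. The tests were checked on simulated counts.

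Named genes were the 7 of the rule, members of lists by level or role, the 20 leading genes and the 5 of lowest p in each comparison; other names were chosen after their values were seen. Gene coordinates are from GENCODE on GRCm38, where 30934 of 31053 gene IDs matched. Promoters are from RefSeq.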

Additional observations from a re-analysis of the deposited data

How the results depend on the processing

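With no filter on low counts, edgeR called 1 gene for P301S, 60 for KO, 20 for CA and 17 for all P301S mice, and 11 for the interaction. With line as a covariate 42 genes were called for KO, and with age 42, of which 15 were shared. Leaving out 1 mouse at a time gave 0 to 11 calls for KO, with the 11 without P301S replicate 3, and 0 for the other comparisons. With marked nuclei left out (settings added after seeing the data), P301S had 1 call without NT replicate 3, 3 without P301S replicate 1, 2 without P301S replicate 3, 1 without KO replicate 2, 1 without CA replicate 1 and 1 with line. KO and CA each had 1 without P301S replicate 1. All P301S mice had 1 without P301S replicate 1, 2 without CA replicate 1, 1 with line and 1 with age. The genes were Usp29, Cdh13, Adarb2, Phactr1 and Lhfpl3. The cause of these changes was not tested.

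The difference in share of nuclei, in percentage points, changed sign when single mice were left out, ranging from -0.0908 to 0.00206 for P301S, -0.0247 to 0.416 for KO, -0.209 to 0.533 for CA and -0.0197 to 0.104 for all P301S mice. The reversals came without NT replicate 2, KO replicate 1 (-0.000131 for all P301S mice) and CA replicate 2. With at least 4 rule genes it was -0.00835 for all P301S mice, and for unmarked members -0.00873. The remaining 33 share values, 128 counts and 365 single-gene values kept direction and side of the threshold, while 13 single-gene values newly passed it.

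Samples of the same title number did not deviate together over all lines (median correlation -0.0099 over 22 pairs, 5 above 0.1), and a fit with the replicate number as a block called 0 genes in all 4 comparisons. Within a line, pairs of the same number had correlations of -0.00796 to 0.168 (median 0.106, 5 of 10 above 0.1 and 9 above 0). Pairs of different numbers had -0.168 to 0.157 (median -0.0324, 1 of 10 above 0.1 and 3 above 0). In a group of 2 mice the deviations mirror each other, so these pairs are not independent. Some pairs of the same number lay below 0.1, and NT replicate 4 correlated best with a sample of another number. The numbers were not taken to pair the mice in the main fit, but these values do not settle whether they do. With each number of each line as a replicate block, chosen after seeing the data, 99 genes were called for KO, 98 of them higher and 96 over 2-fold higher in astrocyte-marked nuclei than in unmarked members, and 0 in the other comparisons. With marked nuclei left out, the same block called 1 gene for all P301S mice, Cdh13, and 0 otherwise. In all members, 2-fold changes were mostly missed in the simulated counts for the first 3 comparisons.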
